A study of Mus musculus with 12 samples.

Results

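The transcript uc007kzn.2 had the highest mean share of ribosome footprints among long transcripts in newborn mouse eyes, by a narrow margin. The files give each transcript a number without a unit, called its listed length here, which to the nearest 100 is 1400 for uc007kzn.2. Exactly that listed length occurred in 3 rows, and uc007kzn.2 was chosen by its mean share of counts over the 6 footprint libraries, the highest of the 3. It is 1 feature of 32803, the number left after transcripts with identical counts in all 12 libraries were reduced to 1. Its footprint level and rank are therefore descriptions. Long means a listed length of at least 1000. The next long features by mean footprint share were close, with 0.988% and 0.958% against 1.03%, and the order rests on the KO libraries. Without KO library 1, 2 or 3 uc007kzn.2 had 1.07%, 0.755% and 0.922%, below 1.15% for the leading feature in each case. The identifiers could not be matched to genes with the tables used here, so the gene, its function and its sequence are not given.

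Eyes were taken at postnatal day 0.5 from wild-type mice (WT) and from mice labelled RNG140KO (KO), with 3 mRNA and 3 footprint libraries per genotype, 12 in all. The labels name no allele, strain, sex, litter or animal. Whether each library stands for a different mouse is unknown, and the p-values reflect library-to-library spread that can be technical. The source is given as eye, a mixture of cell types, so fewer cells of a type and less RNA per cell cannot be told apart in any level below. The knockout was not checked on the targeted gene, for want of gene names.

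RNG140, also called Caprin2, is an RNA-binding protein found in cytoplasmic RNA granules, where mRNAs are held and their translation is controlled. In the eye it is best known from the lens. A ribosome shields a short stretch of the mRNA it translates from nuclease, and sequencing these footprints counts ribosomes on each mRNA. Sequencing the mRNA beside it gives the supply of template, and the ratio of the 2 is the translation efficiency. A long coding sequence has room for more ribosomes than a short one, so shares and ranks given without division by listed length count reads and not molecules.

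In these eyes uc007kzn.2 took a larger share of the footprints and of the mRNA in each KO library than in any WT library. Its mean footprint share was 3.59 times as high in KO and its mean mRNA share 1.49 times. Neither difference passed the edgeR test with adjustment across the whole table. The footprint to mRNA ratio was higher on average in KO. Its ranges overlapped for shares and did not overlap after TMM scaling within each assay, which is explained below.

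No row of the same listed length, or near it in the identifier order, came close to its footprint counts. The row ranked next at the same listed length, uc009sdr.1, had a mean footprint share of 0.00538% against 1.03% for uc007kzn.2. These are the values just outside and just inside the rule. The remaining row had 0.000942%. No other transcript had the same 12 counts as uc007kzn.2. The 19 kept features whose identifiers share its first 7 characters, and which stand near it in the identifier order, had at most 167 counts in any library. The largest of these neighbours never exceeded 2.44% of the count of uc007kzn.2 in the same library. Whether rows elsewhere in the identifier order share reads with uc007kzn.2 was not tested.

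Libraries differed in depth and make-up, which touches each value below. Kept counts ran from 296549 to 5324271 in the footprint libraries and from 602243 to 1124207 in the mRNA libraries. Within KO the footprint libraries resembled each other closely, with Spearman correlations across features of 0.933 to 0.938, and within WT less so, with 0.777 to 0.882. All long features together held 6.64% to 26.8% of the counts in WT footprint libraries and 8.89% to 21.4% in KO. In mRNA they held 26.1% to 36.2% in WT and 21.2% to 23.6% in KO, ranges that did not overlap. The part of these differences in the results was not tested.

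The mRNA of uc007kzn.2 was counted 2789, 1268 and 1230 times in WT libraries 1, 2 and 3, and 1881, 2103 and 2539 times in KO. As a share of all kept counts of a library this was 0.248%, 0.211% and 0.190% in WT. In KO it was 0.299%, 0.298% and 0.371%. All KO libraries lay above all WT libraries, and each genotype spanned a narrow range, with the highest library at 1.31 times the lowest in WT and 1.25 times in KO. Counting error was small beside this, as the 95% Wilson interval of the lowest KO library, 0.286% to 0.311%, did not reach that of the highest WT library, 0.239% to 0.257%. These intervals cover counting error only. Every KO value lay above every WT value in 10.4% of the 14131 features tested in mRNA. Among the 685 others with at least 100 counts on average in each assay it was 25.8%.

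The mean mRNA share was 0.216% ± 0.0297 in WT and 0.323% ± 0.0418 in KO (SD, n = 3). The two-sided exact permutation p was 0.1 (adjusted over 3 such tests 0.15), the smallest that 3 against 3 libraries allow. With TMM scaling, which sets libraries to a common level by the bulk of features, the level was 2034 ± 189 CPM (counts scaled to a common library total) in WT and 3414 ± 388 in KO (SD, n = 3). These levels were scaled over all kept features, while the edgeR test used features that passed a low-count filter. The log2 fold change was 0.84 (SE 0.56), or 0.75 without the filter. With the filter, edgeR's quasi-likelihood test gave an adjusted p of 0.325, so the change was not called. By this test 9.16% of features were called higher in KO. The call depended on the tool and on 1 library. DESeq2 gave a log2 fold change of 0.83 with a smaller error (SE 0.24) and an adjusted p of 0.0141, where it called 6.08% of features higher. Without WT replicate 3, edgeR gave 0.78 (SE 0.30) and an adjusted p of 0.0455, where 15.4% of features were called higher.

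Footprints on uc007kzn.2 numbered 1163, 4997 and 16080 in WT libraries 1, 2 and 3, and 41249, 49306 and 26622 in KO. Since the libraries differ in depth, the shares are the comparable values. They were 0.392%, 0.656% and 0.302% in WT. In KO they were 0.842%, 2.42% and 1.58%. By share, KO library 1 was closer to WT library 2 than to the other KO libraries, yet the genotypes did not overlap. With TMM scaling it was 10973 CPM, nearer to the 15168 of KO library 3 than to the 6172 of WT library 2. The highest library was 2.17 times the lowest in WT and 2.87 times in KO, a far wider spread than in mRNA. The 95% Wilson interval was 0.638% to 0.674% in WT library 2 and 0.834% to 0.850% in KO library 1. Every KO value lay above every WT value in 13.3% of the 17236 features tested in footprints. Among the 685 others with at least 100 counts on average in each assay it was 13.4%.

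**Figure D1:**
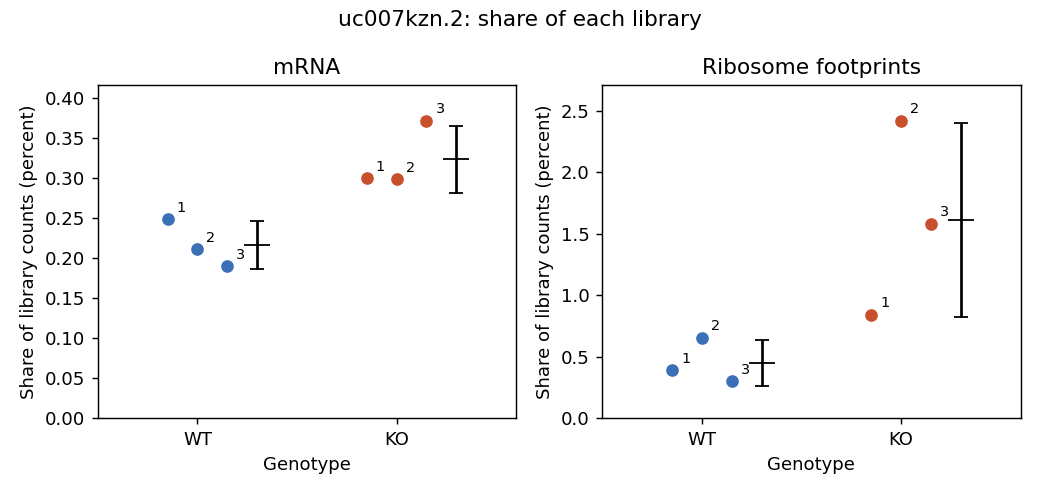
Share of library counts taken by uc007kzn.2 (percent, vertical axes) in mRNA (left) and ribosome footprints (right), by genotype. Points are single libraries with their number, and bars give the mean and SD (n = 3). In each assay all KO points lie above all WT points, and the footprint points of KO are the most spread, from 0.842% to 2.42%.

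In KO libraries 2 and 3 no feature of any length had more footprints than uc007kzn.2, and in KO library 1 it ranked 13th. In the WT libraries it ranked 15th, 15th and 60th. Among long features alone it was the most footprinted in every KO library and had 2 long features above it in every WT library. In mRNA its rank moved little, from 7th to 19th in WT and from 13th to 19th in KO.

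The mean footprint share was 0.450% ± 0.184 in WT and 1.61% ± 0.789 in KO (SD, n = 3), with an exact permutation p of 0.1 (two-sided, adjusted over 3 such tests 0.15), again the smallest possible. The same footprint libraries chose the transcript, by their mean over both genotypes. Its lead among long features rests on those of KO, so a high KO share is partly built into the choice. On the TMM scale the level was 4382 ± 1952 CPM in WT and 16263 ± 5914 in KO (SD, n = 3). These levels were again scaled over all kept features. After the low-count filter the log2 fold change was 1.84 (SE 0.89), with an edgeR adjusted p of 0.241, so this change was not called either. Without the filter it was 1.89. In footprints edgeR called 0.685% of features higher in KO. DESeq2 gave the same fold, 1.84, with an SE of 0.46 and an adjusted p of 0.00665, where it called 1.79% of features higher. Leaving out KO replicate 2, the library with the largest share, brought the mean difference in share from 1.16 to 0.762 percentage points.

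Since long features as a group made up a varying part of each library, the share of uc007kzn.2 within them was also computed, without a test. It held 1.46%, 4.07% and 4.55% of the footprint counts on long features in WT. In KO it held 9.47%, 11.3% and 9.995%. On this base the KO libraries lay close together, and library 1 no longer stood apart from libraries 2 and 3. The corresponding mRNA values of WT were 0.685%, 0.582% and 0.725%, and those of KO 1.27%, 1.39% and 1.75%. Where overlapping transcripts were credited with the same reads, the long-feature totals count those reads more than once.

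Per unit of listed length, uc007kzn.2 was less exceptional. Its footprint share per 1000 units was 0.272%, 0.454% and 0.209% in the WT libraries, against 0.583%, 1.68% and 1.10% in the KO libraries. By this density it ranked between 97th and 187th in WT footprints and between 50th and 94th in KO. In mRNA the share per 1000 units was 0.131% to 0.172% in WT and 0.206% to 0.257% in KO. By mean density over the 6 libraries of an assay, a pair of long features of listed length 1272 stood ahead of it. In footprints, 0.715% per 1000 units stood close behind their 0.777% and 0.753%. In mRNA the gap was wide, with 0.187% against 0.790% and 0.814%.

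The footprint to mRNA ratio sets the footprint share over the mRNA share. Libraries were joined by genotype and number for this purpose, a link that the labels do not state. WT samples 1, 2 and 3 had ratios of 1.58, 3.11 and 1.59. The KO samples had 2.81, 8.12 and 4.26. WT sample 2 lay above KO sample 1, so the genotypes overlapped. The edgeR model below scales both assays together, while here TMM scaling was done within each assay. The WT ratios were then 1.02, 3.16 and 2.46 and the KO ratios 3.51, 6.95 and 3.93. On that scale all KO samples lay above all WT samples, as in 5.59% of features tested for translation efficiency. For ratios of shares, such a separation was found in 3.55% of those features. Among the 685 others with at least 100 counts on average in each assay it was 15.2%. When every footprint library was set over every mRNA library of its genotype, the 9 ratios ran from 1.22 to 3.46 in WT and from 2.27 to 8.12 in KO. The mean log2 ratio was 0.99 ± 0.56 in WT and 2.20 ± 0.77 in KO (SD, n = 3). Their difference of 1.21, or 2.31-fold, had an exact permutation p of 0.2 (two-sided, adjusted over 3 such tests 0.2). With TMM scaling the difference was 1.20 and its exact permutation p was 0.1, as low as this design can reach.

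The model of all 12 libraries gave a log2 fold change in translation efficiency of 1.15 (SE 1.11, edgeR adjusted p = 0.766). DESeq2 gave 1.18 (SE 0.51, adjusted p = 0.175) and limma voom with sample weights 0.94 (SE 0.62, adjusted p = 0.421). The change was not called by any of these tools. edgeR called 0% of the 25927 features tested, with 2567 at an unadjusted p under 0.05, and DESeq2 called 0.224%. A change in the efficiency of uc007kzn.2 was therefore not separated from the spread of these libraries, and its SE is too wide to show that there was none.

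In each sample the ratio of uc007kzn.2 stood above those of all other well-counted features of like length. These were 37 features with listed lengths from 1311 to 1584 and at least 100 counts on average in each assay. Several have adjoining identifiers and nearly equal ratios, so they are not 37 independent comparisons. Their median log2 ratio ran from -1.81 to -0.86 in the WT samples and from -1.52 to -0.83 in the KO samples, against 0.66 to 1.64 and 1.49 to 3.02 for uc007kzn.2. Over well-counted features of any length the place was less extreme. Of 685 such features, 160, 102 and 154 had a ratio at least as high in WT samples 1, 2 and 3, and 79, 32 and 54 in KO. Among them, the long features of listed length 1785 and 1788 had a higher ratio than uc007kzn.2 in every sample. Since a high footprint share chose the transcript, a high ratio is partly built into the choice and is a description.

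**Figure D2:**
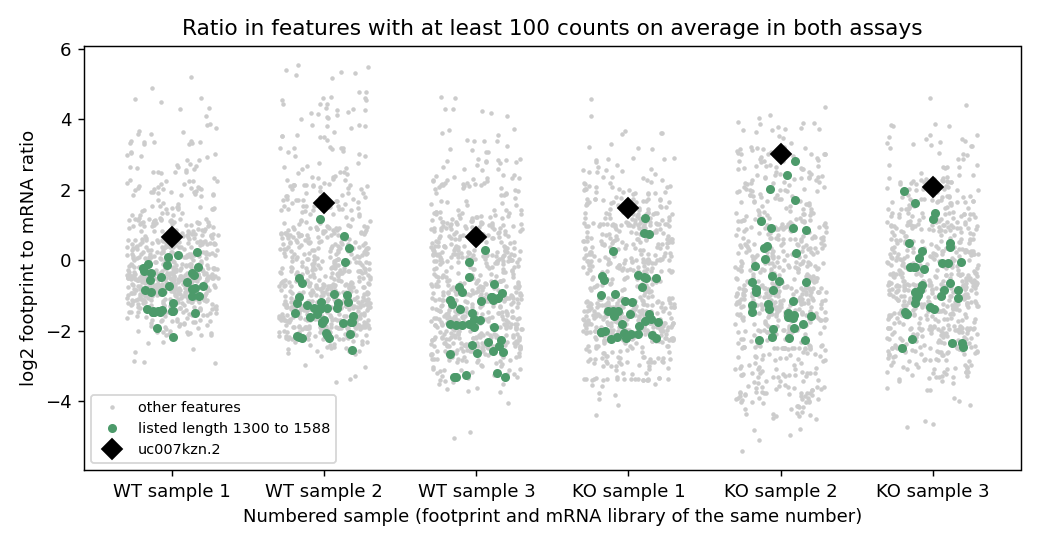
The log2 footprint to mRNA ratio (vertical axis) in the 6 numbered samples (horizontal axis) for features with at least 100 counts on average in both assays. The diamond is uc007kzn.2, green points are features with a listed length within 10% of that of uc007kzn.2, and grey points are the others, spread sideways for visibility. The diamond lies above all 37 green points in each sample and between 0.66 and 3.02 on the log2 scale.

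Features of like length showed what was usual in these libraries. Of 636 tested in mRNA with a listed length within 10% of that of uc007kzn.2, 18 were called higher and 93 lower in KO by edgeR, and their median log2 fold change was -0.32. Over all features tested the call was lower in 6.02%. The median over all features tested was 0.02. The fold change of 0.84 in uc007kzn.2 was met or passed by 27 of the 636, but by 1938 of all 14131 features tested and by 255 of the 685 with at least 100 counts on average in each assay. It was thus uncommon at this length and common among well-counted features. In footprints, 2 of 596 features of like length were called higher and 2 lower (0.435% of all features were called lower), with a median of -0.25 against -0.02 among all those tested. The footprint fold change of 1.84 was met or passed by 6 of the 596, by 269 of all 17236 and by 9 of the 685. In translation efficiency the median was 0.20 at like length and -0.07 among all those tested, and 98 of 730 met or passed the 1.15 of uc007kzn.2, as did 2406 of all 25927 and 66 of the 685.

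The row just outside the rule, uc009sdr.1, had values on the opposite side. Its mRNA share was 0.0376%, 0.0460% and 0.0273% in the WT libraries, against 0.0165%, 0.0129% and 0.0129% in the KO libraries. It fell in KO mRNA by edgeR (adjusted p = 0.0129), with a log2 fold change of -1.12 and an SE of 0.29. Its footprint counts were low, from 27 to 89 per library. The footprint shares were 0.0185%, 0.00761% and 0.00167% in WT libraries 1, 2 and 3, against 0.000918%, 0.00132% and 0.00220% in KO. WT library 3 lay below KO library 3, so the genotypes overlapped. The footprint log2 fold change was -2.29, with an SE of 0.54 and an edgeR adjusted p of 0.0512, just short of a call. Equal listed length thus went with opposite signs, and the difference between these transcripts was not tested.

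Features with a like level of footprints were mostly much shorter. From 0.516% to 2.06% of the footprints, on average, fell on each of 15 other features, of which 12 had listed lengths from 104 to 206. On the log2 scale the footprint fold changes of these 12 lay between -0.36 and 0.16. Their mRNA fold changes lay between 0.64 and 2.09, and those in translation efficiency between -2.33 and -0.88. The mRNA fold change of uc007kzn.2 was met or passed by 11 of the 15. By edgeR, 0 of the 15 were called in footprints, where 0.685% of all features were called higher and 0.435% lower. In mRNA 1 was called higher, against 9.16% of all features. The positive efficiency value of uc007kzn.2 was shared by 1 of the 15, a feature of listed length 1363. Several of the 15 have adjoining identifiers and similar values, so they are not all independent. The comparisons share the same libraries and the differences between features were not tested.

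Of the 10 most footprinted long features, uc007kzn.2 included, 8 had a positive footprint fold change and 7 a positive mRNA fold change. Over all features tested, 8432 of 17236 were positive in footprints and 7197 of 14131 in mRNA. The 10 include pairs with nearly equal values, so they are not all independent. The feature of listed length 1363 had a mean footprint share of 0.241% in WT and 0.892% in KO. On the log2 scale KO differed from WT by 1.87 (SE 0.82) in footprints and by 0.66 (SE 0.49) in mRNA, with edgeR adjusted p of 0.199 and 0.389. A feature of listed length 1455 had 0.155% and 0.474%, with a footprint log2 fold change of 1.62 and an SE of 0.75 (edgeR adjusted p = 0.220). The pair of listed length 1272 had the opposite sign. Of the footprints, 1.79% and 1.74% fell on them in WT on average, and 0.188% and 0.181% in KO. The WT means rest largely on library 1, without which they were 1.01% and 0.965%. In WT libraries 1, 2 and 3 the first of the pair had 3.34%, 1.63% and 0.390%, still above its 0.185% to 0.194% in KO. Their log2 fold changes were -2.93 (SE 0.92) and -2.94 (SE 0.92), with edgeR adjusted p of 0.0950 and 0.0930. In KO, where uc007kzn.2 was the most footprinted long feature, the mean share on this pair was thus lower and its own higher.

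**Figure D3:**
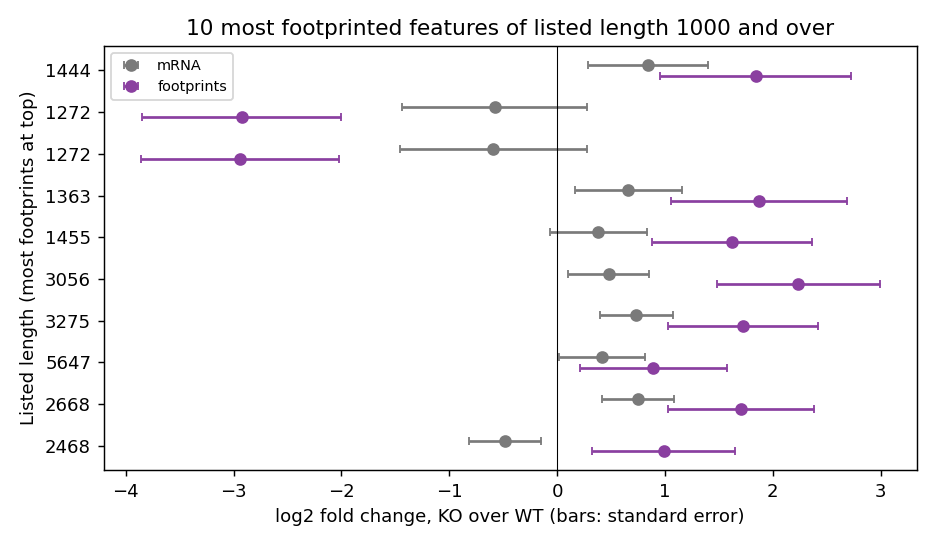
Fold changes (log2, KO over WT, horizontal axis) in mRNA (grey) and footprints (purple) of the 10 long features with the highest mean footprint share, named by listed length (vertical axis). Bars are the edgeR standard error. The uppermost feature is uc007kzn.2, at 0.84 in mRNA and 1.84 in footprints, and the pair of listed length 1272 lies to the left of 0 in each assay.

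The features most like uc007kzn.2 were sought by the Pearson correlation of log2 CPM over the 12 libraries, among the 685 other well-counted features. The closest were uc011wpc.2, of listed length 3275 (r = 0.998), and uc029qrp.1, of listed length 2668 (r = 0.997). These correlated with each other at 0.999, and whether they share reads was not tested. The median correlation over the 685 features was -0.45. All points share the same libraries, depth and make-up, so these values describe likeness and carry no test.

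The closest feature, uc011wpc.2, had footprint shares of 0.0765%, 0.120% and 0.0595% in the WT libraries, against 0.153%, 0.431% and 0.259% in the KO libraries. The order of the 6 libraries was that of uc007kzn.2, with KO library 2 highest and WT library 3 lowest. Its mRNA shares were 0.0471%, 0.0412% and 0.0354% in the WT libraries, against 0.0530%, 0.0575% and 0.0608% in the KO libraries. It was not called in footprints (log2 fold change 1.72, SE 0.69, edgeR adjusted p = 0.166) or in mRNA (0.74, SE 0.34, edgeR adjusted p = 0.145). For uc029qrp.1 the values were 1.71 in footprints and 0.75 in mRNA, with edgeR adjusted p of 0.162 and 0.130.

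**Figure D4:**
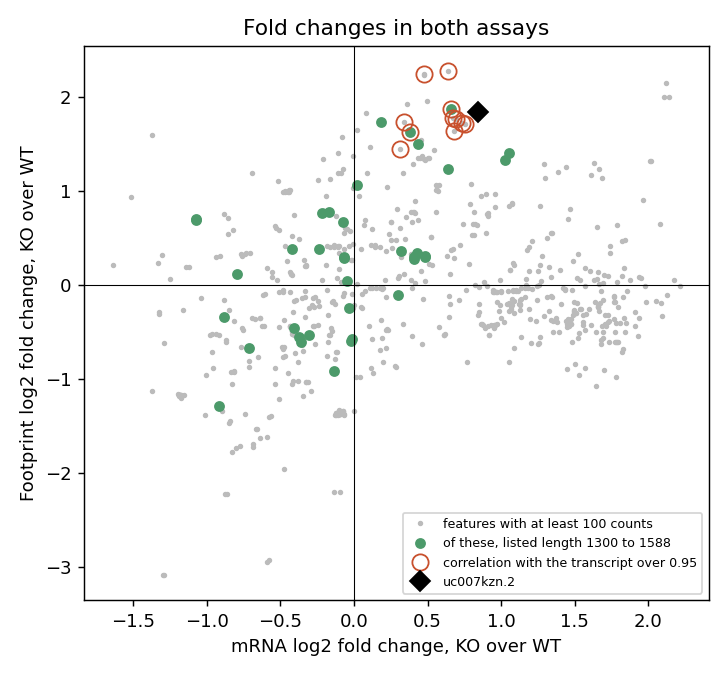
Footprint log2 fold change (vertical axis) against mRNA log2 fold change (horizontal axis), KO over WT, for features with at least 100 counts on average in both assays. Green points have a listed length within 10% of that of uc007kzn.2, rings mark the 11 features that correlate over 0.95 with uc007kzn.2, and the diamond is uc007kzn.2 itself. The rings and the diamond lie together at 0.31 to 0.84 in mRNA and 1.45 to 2.27 in footprints.

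A threshold of 0.95, set after the values were seen, took in 11 features, and the next, of listed length 1795, stood at 0.948. The 11 had listed lengths from 203 to 3275, and 8 of them were long, among them those of listed length 1363 and 1455. Some adjoined each other in identifier, such as those of listed length 1788 and 1785, with mean footprint shares of 0.0975% and 0.0978%. They are thus not all independent. None of the 11 had an identifier near that of uc007kzn.2. Over the 6 footprint libraries alone, their correlations with it were 0.962 to 0.999. Over the 6 mRNA libraries alone the correlations were looser, from 0.498 to 0.980. Log2 fold changes of the 11 ran from 1.45 to 2.27 in footprints, from 0.31 to 0.75 in mRNA and from 1.10 to 1.91 in translation efficiency. The choice by likeness fixes these signs. By edgeR 0 of the 11 were called in any of the 3 tests. With 9.16% of all features called higher in mRNA, 0.685% in footprints and 0% called in translation efficiency, this says little about the 11.

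**Figure D5:**
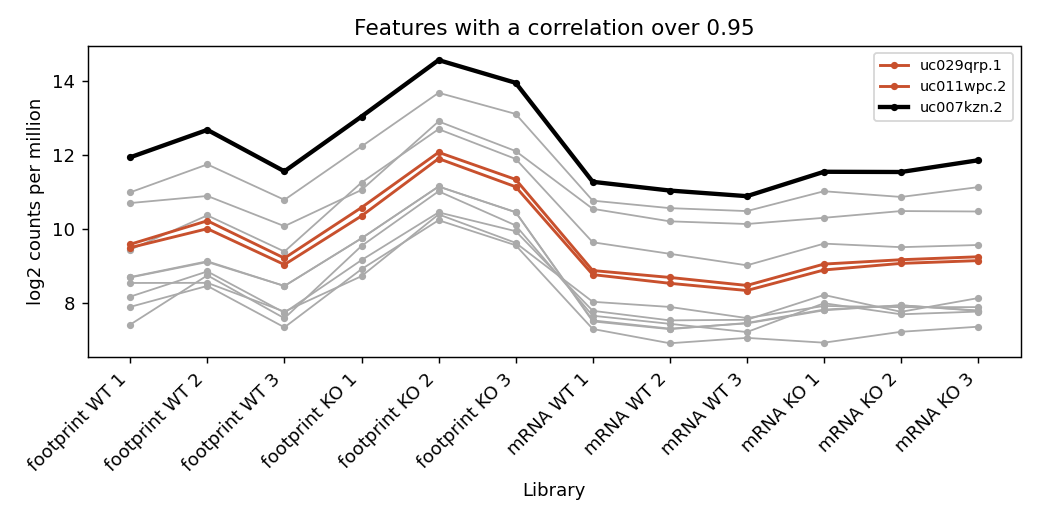
Log2 CPM (vertical axis) in the 12 libraries (horizontal axis) for uc007kzn.2 (black), uc011wpc.2 and uc029qrp.1 (orange) and the other features correlated over 0.95 (grey). Lines join the values of 1 feature and imply no order of libraries. All are highest in footprint library 2 of KO, and all footprint values of KO lie above those of WT for each feature. The choice by likeness largely fixes this, and 13.3% of all features tested in footprints show the same separation.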

How the data were processed

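Each library's deposited file holds raw read counts by UCSC transcript identifier, with a second number per transcript that has no stated unit (other) and is called the listed length here. The submitters' processing notes name the mm10 build with TopHat2 2.0.9, Bowtie2 2.3.4.2 and CASAVA 1.8. How reads were counted, by strand or where transcripts overlap, is not stated in these sources. Per the labels' protocols, footprints came from RNase I digestion and ribosome pelleting, and mRNA libraries from a stranded TruSeq kit.

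Of 63759 identifiers, 42689 had a count, and transcripts with identical counts in all 12 libraries were reduced to 1. Shares are percent of kept counts. edgeR 4.0.16 (R 4.3.3) fitted quasi-likelihood models on the whole table with TMM scaling, its default low-count filter (translation efficiency: at least 10 counts summed over each assay) and Benjamini-Hochberg adjustment at 0.05. The translation efficiency test was the assay-by-genotype interaction. SEs come from the F statistic. DESeq2 1.42.0 and limma 3.58.1 were alternatives, with those named at the end. log2 CPM and plotted ratios used a prior count of 2. The scripts were checked on simulated data. Single values were compared with exact permutation tests (SciPy 1.17.1). Named besides the transcript were the next row of its listed length and the 2 features of highest correlation. The transcript and lists were chosen with earlier results of these data known.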

Additional observations from a re-analysis of the deposited data

How the results depend on the processing

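The fold changes of uc007kzn.2 kept their sign in all alternatives run, 13 for mRNA (0.75 to 0.91), 12 for footprints (1.54 to 2.18) and 15 for translation efficiency (0.78 to 1.49). These limits came from leaving out 1 replicate at a time. Calls were gained with DESeq2 in mRNA (0.83) and footprints (1.84) and, in mRNA, without WT replicate 3 (0.78). The cause was not tested. Alternatives added after seeing the data left out WT mRNA libraries 1 and 2 (0.87 in mRNA, 1.08 in translation efficiency) or WT footprint library 1 (0.88 in translation efficiency), with no call. Differences in share and log2 ratio kept their sign in 10 of 10 alternatives each. They were 0.0826 to 0.138 percentage points for mRNA, 0.762 to 1.55 for footprints and 0.80 to 1.57 for the log2 ratio. The upper limit for mRNA came from TMM-scaled CPM taken as percent, the other limits from leaving out 1 replicate. The rule, which compares only rows of the same listed length, found the same transcript in 8 of 8 alternatives.

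Counts of called features moved more. From 2145 in mRNA they went to 1281 with DESeq2, 328 without WT mRNA libraries 1 and 2, and 652 to 4379 with 1 replicate left out. From 193 in footprints they went to 711 with DESeq2, 968 without the filter, 82 with transcripts separate and 0 to 3057 with 1 replicate left out. From 0 in translation efficiency they went to 2 with DESeq2 size factors, 58 with DESeq2, 5 without the filter, 1 with transcripts separate, 541 with voom, 36 without WT footprint library 1, and 0 to 131 with 1 replicate left out.

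No label states a pairing by replicate number. Deviations of same-numbered libraries over 686 well-counted features correlated at -0.0477 to 0.373 between genotypes in mRNA, -0.678 to 0.329 in footprints and -0.158 to 0.851 between assays, and 6 of 12 were best with their own number. With the replicate block the fold changes were 0.84 in mRNA, 1.86 in footprints and 1.18 in translation efficiency (edgeR adjusted p = 0.367, 0.433 and 0.576), and 2120, 0 and 321 features were called. Paired by number, the share and ratio differences are unchanged by construction.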
